A study of Mus musculus with 6 samples.

Results

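This report follows 10 genes of the receptor system with which myeloid cells read antibody, dying cells, collagen and the self signal Cd47. They are 3 activating Fc gamma receptors (Fcgr1, Fcgr3, Fcgr4), the signalling chains Fcer1g and Tyrobp, 3 receptors of the Cd300 family (Cd300lb, Cd300a, Cd300lf) and the inhibitory receptors Sirpa and Lair1. The members were chosen by gene symbol, and all 10 were found among the 52459 genes of the count table and passed the filter on low counts, which left 17032 genes. The choice followed measured values of the same comparison: Cd300lb was noticed for its fall between the groups, and the family around it was chosen with earlier results known. The values of Cd300lb are therefore given as a description without a test.

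RNA-Seq was performed on whole livers of 6 male Alb-Cre/Cas9 mice, in which the albumin promoter drives Cre in hepatocytes and Cas9, under the CAG promoter, is made in cells where Cre has acted. Each mouse received an AAV8 vector with a U6-driven guide RNA at 4 to 5 weeks of age, either a control guide (sgCtrl, mice 5.1, 7.1 and 7.2) or a guide against Prdx2 (sgPrdx2, mice 1.1, 1.3 and 3.2). Both groups then received the carcinogen DEN at 100 mg/kg after 3 weeks and, 1 week later, the choline-deficient high-fat diet CDA-HFD for 6 months, and they were 8 months old at the end. No liver without DEN and diet was part of the comparison, so the sgCtrl livers are diseased livers. The guide acts in hepatocytes that took up the vector, whereas the 10 genes are known mainly from cells of blood and bone marrow origin, in which the albumin promoter is not known to act.

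Fc gamma receptors bind the constant part of IgG. The activating receptors have no signalling tail of their own and hand the signal to Fcer1g, whose activation motif (ITAM) recruits the kinase Syk. Tyrobp serves other receptors in the same way, Trem2 and Cd300lb among them. Inhibitory receptors such as Fcgr2b, Cd300a, Cd300lf, Sirpa and Lair1 carry inhibitory motifs (ITIM) that recruit phosphatases such as Ptpn6, and the balance of both kinds sets how readily a macrophage engulfs or reacts. In the liver this machinery is known from Kupffer cells, the resident macrophages, and from monocytes and monocyte-derived macrophages that enter injured tissue.

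Total counts ranged from 37462102 to 56865293 per liver, and levels are given as CPM (counts scaled to a common library size of 1e6 and normalized by the TMM method over all genes). The labels give no batch, litter or date. They do not explain the number before the dot in the mouse names (5 and 7 in sgCtrl, 1 and 3 in sgPrdx2), which the groups do not share, so that whatever it stands for cannot be told apart from the guide. Prdx2 RNA itself was at 109, 117 and 132 CPM in sgCtrl and 99.0, 112 and 149 CPM in sgPrdx2 livers (log2 fold change 0.01, standard error of 0.18, adjusted p of 0.983 by edgeR's test). Cas9 cuts need not change the amount of RNA. Exons of Prdx2 also overlap exons of Rnaseh2a and Junb on the other strand, the strand setting is not given, and 12% of its stretches of 50 bases occur in other genes. The labels could therefore not be checked from Prdx2 RNA. In the same fit 262 genes were called lower (1.54% of the genes tested) and 305 higher (1.79%) in sgPrdx2 livers at an adjusted p under 0.05. With scaling to 6 housekeeping genes (Atp5b, Bag6, Cox8a, Hint1, Hnrnpa2b1 and Ndufa2) the split was 919 lower and 70 higher. The median of all genes was then at -0.38 and that of the members at -1.19, so directions are relative to the other genes. This scaling takes the 6 genes as unchanged, and Atp5b, Cox8a and Ndufa2 encode subunits of ATP synthase and the respiratory chain. The tissue label was borne out by albumin, the most abundant of the 6 hepatocyte markers at 58800 CPM or more in every liver. The summed level of these markers was 78069 to 83520 CPM in sgCtrl and 133414 to 181058 CPM in sgPrdx2 livers, and all 6 were called higher, so hepatocyte RNA moved with the groups.

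All 10 members had a lower fitted level in sgPrdx2 than in sgCtrl livers, from 46.7% of the sgCtrl level for Cd300lb to 82.6% for Fcer1g. The median log2 fold change was -0.81, beside -0.02 over all genes tested. In 7 of the 10, Cd300lb included, each sgPrdx2 liver was below each sgCtrl liver, which held for 17.5% of all genes, while no member was higher without overlap, against 16.7% of all genes. Of the 9 members other than Cd300lb, Cd300a and Lair1 passed the test (adjusted p under 0.05) and fell, and none rose. At an unadjusted p under 0.05, 7 of the 9 were lower, beside 11.9% of all genes lower and 13% higher. DESeq2 called 6 of the 9 lower, beside 5.78% of the genes it tested called lower and 7.58% higher. In RNA of whole liver, fewer myeloid cells and less of these RNAs per cell cannot be told apart.

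**Figure D1:**
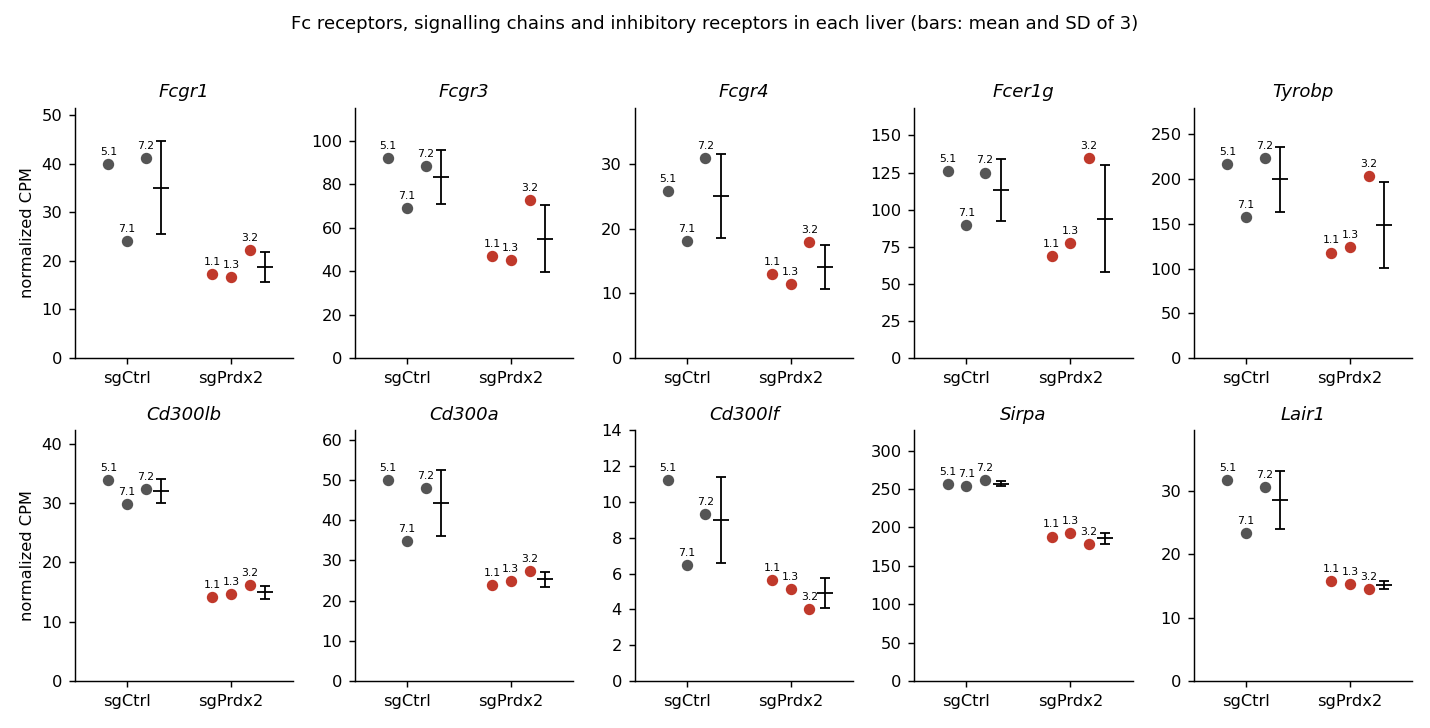
Normalized levels (CPM, vertical axes, each from 0) of the 10 genes in each of the 6 livers, with mouse numbers beside the points and the mean and SD of the 3 livers of a group as bars. The groups do not overlap for Cd300lb, Cd300a, Sirpa and Lair1 and, with smaller gaps, for Fcgr1, Fcgr4 and Cd300lf. Over all genes tested, 17.5% were lower without overlap. In contrast, sgPrdx2 liver 3.2 lies among the sgCtrl livers for Fcgr3 and Tyrobp and above them all for Fcer1g.

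Fcgr1, the high-affinity receptor for IgG, was at 39.9, 24 and 41.2 CPM in the sgCtrl livers 5.1, 7.1 and 7.2 and at 17.2, 16.6 and 22.3 CPM in the sgPrdx2 livers 1.1, 1.3 and 3.2. The groups did not overlap, but sgCtrl liver 7.1 came close to sgPrdx2 liver 3.2, and the log2 fold change of -0.90 (standard error 0.23) had an adjusted p of 0.0671. Fcgr4, which binds certain IgG subclasses, had 25.9, 18.1 and 31.0 CPM in sgCtrl and 13, 11.5 and 18 CPM in sgPrdx2 livers (log2 fold change -0.82, standard error 0.24, adjusted p = 0.0925). Its groups were separated by less than 1 CPM, and they overlapped under RLE normalization. Fcgr3, a low-affinity receptor, had 92.3, 69.3 and 88.5 CPM in sgCtrl and 46.9, 45.1 and 72.8 CPM in sgPrdx2 livers (log2 fold change -0.60, standard error 0.22, adjusted p = 0.142), so that liver 3.2 lay above sgCtrl liver 7.1.

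The 2 signalling chains had the smallest differences of the members. Fcer1g, the common chain of the activating Fc receptors, was at 126, 89.4 and 125 CPM in sgCtrl livers and at 68.8, 77.4 and 135 CPM in sgPrdx2 livers. Livers 1.1 and 1.3 were below all sgCtrl livers and liver 3.2 was above them all, and the log2 fold change of -0.28 was close to its standard error of 0.27 (adjusted p = 0.556). Tyrobp had 217, 158 and 224 CPM in sgCtrl and 118, 124 and 204 CPM in sgPrdx2 livers (log2 fold change -0.43, standard error 0.24, adjusted p = 0.315). Its level in liver 3.2 lay between sgCtrl liver 7.1 and the other 2 sgCtrl livers. Neither chain passed the test.

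Cd300lb, an activating Cd300 receptor that pairs with Tyrobp, had 33.8, 29.8 and 32.4 CPM in sgCtrl and 14.1, 14.6 and 16.2 CPM in sgPrdx2 livers. The means were 32.0 ± 2.02 and 14.9 ± 1.1 CPM (SD, n = 3), and the log2 fold change was -1.10. Cd300lb was chosen for this fall, so the distance between the groups is a description. Its inhibitory relative Cd300a, a receptor for phosphatidylserine on dying cells, fell from 49.9, 34.9 and 48.0 CPM to 23.8, 24.8 and 27.4 CPM (log2 fold change -0.80, standard error 0.16, adjusted p = 0.0457). Cd300lf, an inhibitory receptor, was much less abundant, at 11.2, 6.45 and 9.34 CPM in sgCtrl and 5.65, 5.12 and 3.99 CPM in sgPrdx2 livers, and did not pass the test (log2 fold change -0.87, standard error 0.24, adjusted p = 0.0813).

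Sirpa, the receptor for Cd47 that restrains engulfment, was the steadiest member within groups. It had 256, 254 and 261 CPM in sgCtrl and 188, 192 and 178 CPM in sgPrdx2 livers, and its log2 fold change of -0.47 (standard error 0.12) had an adjusted p of 0.0741. Lair1, the inhibitory collagen receptor, fell from 31.7, 23.4 and 30.7 CPM to 15.8, 15.3 and 14.5 CPM (log2 fold change -0.91, standard error 0.15, adjusted p = 0.0358 from edgeR). The sgPrdx2 livers were close to each other for Lair1, and all were well below the lowest sgCtrl liver.

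The calls of Cd300a and Lair1 were lost when any of 4 livers was left out. Without sgCtrl liver 5.1 or 7.2, or without sgPrdx2 liver 1.1 or 1.3, no gene of the whole table was called, although 3114 to 3993 genes, 6 of the 9 members among them in each fit, had an unadjusted p under 0.05. In these fits the log2 fold change was -0.94 to -0.83 for Lair1 (adjusted p of 0.0805 to 0.144) and -0.77 to -0.71 for Cd300a (0.0983 to 0.162). Both calls were kept without sgCtrl liver 7.1 (adjusted p = 0.0349 for Cd300a and 0.0318 for Lair1) and without sgPrdx2 liver 3.2.

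Levels between genes were compared per length, as RPKM (CPM divided by the summed exon length in kilobases) in sgCtrl livers. The signalling chains led, with Tyrobp at 299.6 ± 54.3 RPKM (SD, n = 3) and Fcer1g at 130 ± 23.8. Sirpa (52.3 ± 0.80) and Fcgr3 (48.0 ± 7.1) followed, with ranges over livers that overlapped. Next came Fcgr4 (19.9 ± 5.17), Fcgr1 (13.5 ± 3.70), Cd300lb (11 ± 0.69) and Cd300a (9.34 ± 1.73), each overlapping its neighbour in this order, with the inhibitory Fcgr2b (14.8 ± 1.23) among them. Lair1 (3.83 ± 0.61) and Cd300lf (1.75 ± 0.46) were the least abundant per length, without overlap between them or with Cd300a. Both chains lay above every receptor of the family on this scale.

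Relative to the other 2 sgPrdx2 livers, sgPrdx2 liver 3.2 had higher levels of the shorter members than of the longer ones. In this liver, Fcer1g was 1.85, Tyrobp 1.68, Fcgr3 1.58, Fcgr4 1.47 and Fcgr1 1.32 times the mean of the sgPrdx2 livers 1.1 and 1.3. These 5 genes have summed exon lengths of 667 to 2589 bases. Sirpa, Lair1 and Cd300lf, of 4911 to 7475 bases, were at 0.934, 0.930 and 0.744 times that mean, and Cd300lb (2917 bases) and Cd300a (4738 bases) at 1.13 times. The deviation of sgCtrl liver 7.1 did not divide short from long genes in this way: Fcgr1 was at 68.5%, Cd300lf at 71.7%, Cd300lb at 93.1% and Sirpa at 98.7% of the sgCtrl mean.

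**Figure D2:**
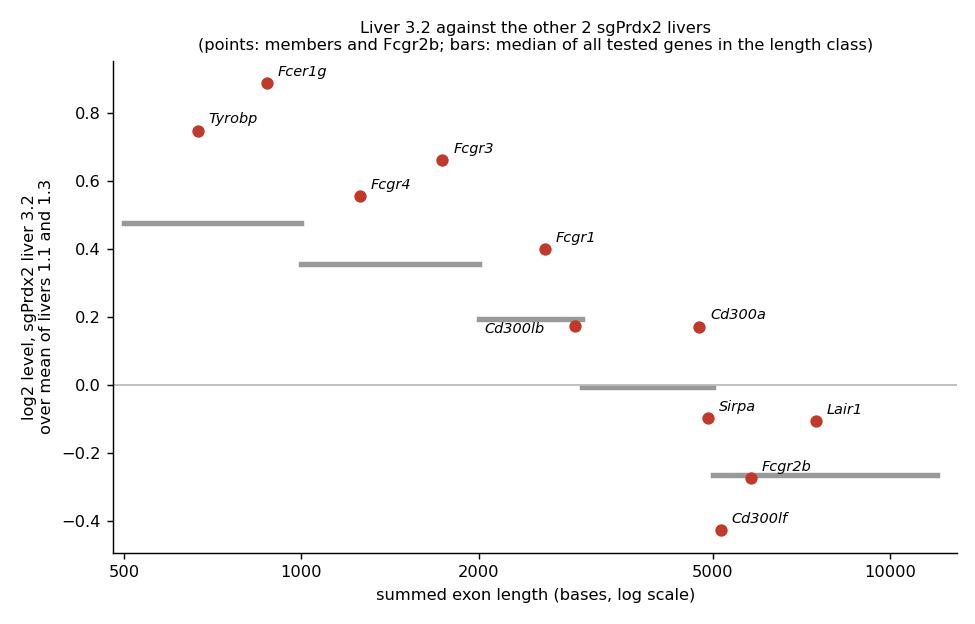
Log2 ratio of sgPrdx2 liver 3.2 to the mean of sgPrdx2 livers 1.1 and 1.3 (vertical axis) against summed exon length in bases (horizontal axis, log scale), for the 10 members and Fcgr2b as points. Bars give the median of all tested genes in 5 length classes, which falls from 0.48 under 1 kb to -0.26 over 5 kb, and the 5 shortest members lie highest among the 10.

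A slope with length was present across the whole table. The median log2 ratio of liver 3.2 to the other 2 sgPrdx2 livers was 0.48 for the 1351 tested genes under 1 kb, 0.36 from 1 to 2 kb, 0.19 from 2 to 3 kb, -0.01 from 3 to 5 kb and -0.26 for the 6060 genes over 5 kb. In sgPrdx2 livers 1.1 and 1.3, the medians of the 5 classes relative to the sgCtrl mean stayed between -0.07 and 0.08. They too were higher under 1 kb (0.084 and 0.061) than over 5 kb (-0.066 and -0.038). The same held for sgCtrl liver 7.2 (0.093 and -0.057). Livers 5.1 (-0.022 and 0.006) and 7.1 (-0.055 and 0.047) of sgCtrl went the other way. The dependence on length and GC content was then taken off in each library, an alternative chosen after the values were seen. The ratio of Fcer1g in liver 3.2 to the sgCtrl mean changed from above all sgCtrl livers to 82.7%. That was only just below the lowest of them, 84% in liver 7.1. In that fit 6 of the 9 members besides Cd300lb fell (2.9% of all genes were called lower): Fcgr1, Fcgr3, Fcgr4, Tyrobp, Cd300a and Lair1, with adjusted p of 0.0313 to 0.0442 and log2 fold changes of -1.01 for Fcgr4 to -0.73 for Tyrobp. Fcer1g (-0.55, adjusted p = 0.0985), Cd300lf (-0.80, 0.073) and Sirpa (-0.42, 0.0574) did not pass.

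With liver 3.2 left out, all 10 members were lower in each remaining sgPrdx2 liver than in each sgCtrl liver, which held for 22.7% of all genes in that smaller comparison. Fcgr3 (adjusted p = 0.0431), Cd300a (0.0484) and Lair1 (0.0425) were then called, 3 of the 9 besides Cd300lb, against 1.68% of all genes called lower. The log2 fold change of Fcer1g became -0.62 (standard error 0.18, adjusted p = 0.0961) and that of Tyrobp -0.71 (0.18, adjusted p = 0.0736).

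For the deviations of the 6 livers from their group means, the 10 pairs among the Fc gamma receptors and signalling chains had a median Pearson r of 0.90 (0.82 to 0.99). The 10 pairs among the Cd300 genes, Sirpa and Lair1 had a median of 0.51 (-0.53 to 0.93), and the 25 pairs between both sets a median of 0.46, although Cd300lb and Cd300a had r of 0.75 to 0.97 with the 5 genes of the first set. Without centring on the group means, the 3 medians were 0.93, 0.95 and 0.76. These points share libraries and the length slope above, and the values are descriptions. Among 14113 genes with at least 1 CPM, those whose levels over the 6 livers were most like the mean profile of the members included Unc93b1, which carries nucleic acid sensing Toll-like receptors to the endosome (r = 0.998), the sorting nexin Snx5 (0.997), C1qc, a chain of complement C1q (0.997) and the phospholipase Plcg2 (0.995).

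Promoter sequences were read because PU.1, the master transcription factor of myeloid cells, is known to act at many of their genes. RefSeq gave the 250 bases before and 50 bases after the transcription start for 8 of the 10 members (mouse build GRCm38.p6), and not for Tyrobp and Sirpa. The letters GAGGAAG, a core sequence that PU.1 can bind, were searched on both strands and were found in 6 of the 8, against 13.6% of 32851 promoters of the same length. In the 6 genes the first match began 7 to 56 bases before a start and read CTTCCTC on the strand of the gene, and Cd300lf held a second match at its start, which read GAGGAAG on that strand. The stretches around the first matches are shown 5′ to 3′ on the strand of the gene, with the match in capitals, to show their position and flanks:
Fcgr1, chr3:96294009-96294049, minus strand: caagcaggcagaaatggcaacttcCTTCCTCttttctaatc
Fcgr3, chr1:171059394-171059434, minus strand: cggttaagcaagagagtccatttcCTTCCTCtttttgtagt
Fcgr4, chr1:171018879-171018919, plus strand: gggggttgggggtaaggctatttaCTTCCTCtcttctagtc
Cd300a, chr11:114889977-114890017, plus strand: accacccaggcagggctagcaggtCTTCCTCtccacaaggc
Cd300lf, chr11:115134020-115134060, minus strand: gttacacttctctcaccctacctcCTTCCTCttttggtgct
Lair1, chr7:4063215-4063255, minus strand: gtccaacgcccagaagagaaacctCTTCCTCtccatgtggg

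The 41 bases just before the start of the 2 members without a match, Fcer1g and Cd300lb, are shown for comparison:
Fcer1g, chr1:171234350-171234390, minus strand: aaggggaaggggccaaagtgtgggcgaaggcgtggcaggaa
Cd300lb, chr11:114934372-114934412, minus strand: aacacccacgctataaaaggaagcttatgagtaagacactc

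Fcer1g had the highest fold change of the 10 and Cd300lb, chosen for its fall, the lowest. Whether the letters GAGGAAG bear on the fold changes was not tested. They were compared with all promoters and not with those of other myeloid genes. The AP-1 letters TGANTCA were found in none of the 8, against 7.81% of all promoters. So few promoters cannot show a share below that of all promoters. A match is a run of letters and not a measured site, and no binding was measured in these livers.

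In the genome (GRCm38, GENCODE M21) the members lie in 2 clusters and at 4 further places. Fcgr4 (chr1:171018920-171029761), Fcgr3 (chr1:171051174-171064935) and Fcer1g (chr1:171229572-171234365) lie near the inhibitory Fcgr2b (chr1:170958617-170976547). Cd300a (chr11:114890041-114904654), Cd300lb (chr11:114922781-114934386) and Cd300lf (chr11:115116214-115133992) lie in a row with other Cd300 genes. Fcgr1 is on chromosome 3, Sirpa on chromosome 2, and Tyrobp and Lair1 are at distant places on chromosome 7. No exon of the 10 overlaps an exon of another gene. Of the stretches of 50 bases in the transcripts, 9.58% of those of Fcgr3 also occur in Fcgr2b, whereas Fcgr1, Fcgr4, Fcer1g, Tyrobp, Cd300lb and Sirpa share none with any gene.

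The other genes of the pathway were described from 7 lists with 102 genes, 86 of which were tested. Of these, 16 fell and none rose (47 lower and 5 higher at an unadjusted p under 0.05, 34 and 4 by DESeq2). Over all genes tested the shares were 1.54% called lower, 11.9% lower at an unadjusted p under 0.05 and 5.78% called lower by DESeq2. Leaving out single livers gave 0 to 20 lower calls, with 0 in the 4 fits named above and 7 without sgCtrl liver 7.1. Of the 86, 75 had a lower fitted level, and the median log2 fold change was -0.48. In 50 of the 86 each sgPrdx2 liver was below each sgCtrl liver (17.5% of all genes), and in 6 above (16.7% of all genes).

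**Figure D3:**
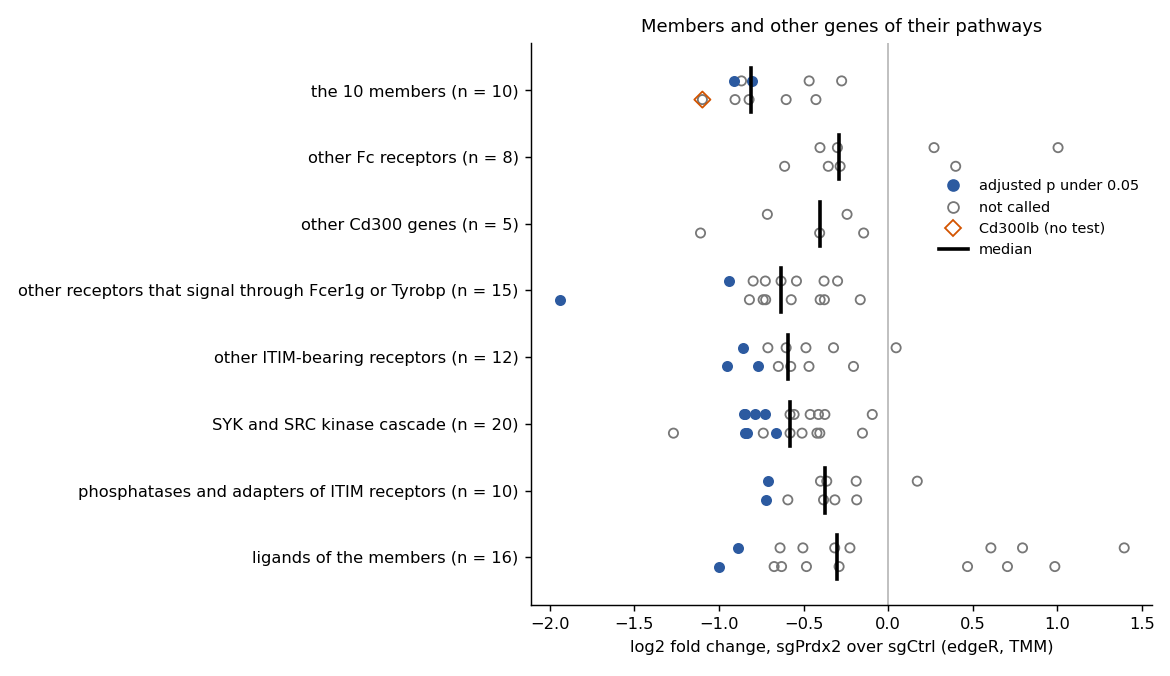
Log2 fold change of sgPrdx2 over sgCtrl livers (horizontal axis) for the members and for each tested gene of the 7 pathway lists (rows, number of genes in brackets), with called genes filled and list medians as bars. The medians of the 7 lists lie between -0.63 and -0.29, and the ligands spread to both sides of 0.

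Among the other Fc receptors, none of 8 tested genes passed in edgeR (2 lower and 2 higher at an unadjusted p under 0.05, none lower and 1 higher by DESeq2). Fcgr2b, the inhibitory Fc gamma receptor, which sinusoidal endothelium also makes, had 92.7, 86.2 and 78.5 CPM in sgCtrl and 77.8, 70.0 and 61.1 CPM in sgPrdx2 livers (log2 fold change -0.30, standard error 0.14, adjusted p = 0.234). An exon of it overlaps the antisense gene Gm38204, and the strand setting of the counts is not given. Pigr, which carries polymeric antibody across epithelium, had 673, 1110 and 611 CPM in sgCtrl and 1940, 1470 and 1400 CPM in sgPrdx2 livers (log2 fold change 1.0, standard error 0.26, adjusted p = 0.0722), and Fcgrt, the neonatal Fc receptor that recycles IgG, had 202, 189 and 178 against 241, 218 and 291 CPM (0.40, standard error 0.15, adjusted p = 0.160). All sgPrdx2 livers exceeded all sgCtrl livers for both genes, without passing the test. Fcrls, an Fc receptor-like gene of macrophages, was at -0.61 (standard error 0.22, adjusted p = 0.137).

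The log2 ratio of each activating receptor to Fcgr2b was compared in each liver. For Fcgr1 it was -1.22, -1.85 and -0.93 in sgCtrl and -2.18, -2.07 and -1.45 in sgPrdx2 livers, and the difference of -0.57 did not pass (two-sided exact permutation test, p = 0.2). The differences for Fcgr4 (-0.51, exact p = 0.3) and Fcgr3 (-0.32, exact p = 0.4) did not pass either, and 0.1 is the smallest p that 3 livers against 3 allow. The groups overlapped for all 3 ratios through sgPrdx2 liver 3.2, while livers 1.1 and 1.3 lay below every sgCtrl liver in each. Fcgr2b (5790 bases) is longer than the 3 activating receptors (1256 to 2589 bases), so the length slope of liver 3.2 enters these ratios. After the correction of length and GC content, the log2 fold change was -0.18 for Fcgr2b, -0.99 for Fcgr1, -0.77 for Fcgr3 and -1.015 for Fcgr4. A shift between activating and inhibitory Fc gamma receptors was not tested on the corrected values.

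The other Cd300 genes were measured in 5 of the 9 that the table holds, and none of the 5 passed in edgeR (2 were lower at an unadjusted p under 0.05, and DESeq2 called 2). Cd300ld, an activating member, came nearest, with 30.5, 32.9 and 35 CPM in sgCtrl and 19.8, 16.4 and 23.8 CPM in sgPrdx2 livers (log2 fold change -0.71, standard error 0.16, adjusted p = 0.0524). Cd300e, known from monocytes, had 1.03, 1.42 and 2.17 against 0.820, 0.703 and 0.614 CPM (-1.11, standard error 0.33, adjusted p = 0.0957). Both were lower without overlap. On the log2 scale Cd300c2 differed by -0.41 (adjusted p = 0.231), Cd300c by -0.24 (adjusted p = 0.724) and Cd300lg, which is known from endothelium and lies elsewhere on the chromosome, by -0.15 (adjusted p = 0.667). Of the stretches of Cd300a, 3.45% are shared with other genes, Cd300c2 among them, and of those of Cd300lf 2.44%, with Cd300ld among the partners, which leaves a part of their reads uncertain.

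Of 15 tested receptors that signal through Fcer1g or Tyrobp, 2 fell and all 15 had a lower fitted level (median -0.63). Clec4e, a receptor for damaged cells and mycobacterial lipid, fell from 5.35, 4.40 and 5.67 CPM to 2.30, 2.85 and 2.89 CPM (log2 fold change -0.94, standard error 0.19, adjusted p = 0.0463). The activating receptor Pira2 fell by 1.94 on the log2 scale (adjusted p = 0.0328), but 93% of its stretches are shared with near-identical genes, so the gene behind these reads is uncertain. Trem2, the lipid receptor of macrophages in fatty liver, had 162, 106 and 154 CPM in sgCtrl and 78.4, 89.7 and 151 CPM in sgPrdx2 livers (-0.40, standard error 0.28, adjusted p = 0.395), with liver 3.2 again among the sgCtrl livers.

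Of 12 tested genes listed as ITIM-bearing receptors, 3 fell (median -0.59). They were Lilrb4a (log2 fold change -0.86, adjusted p = 0.0409), Lilr4b (-0.95, adjusted p = 0.0394) and Pecam1 (-0.77, adjusted p = 0.0423). Lilrb4a is an inhibitory receptor of myeloid cells, whereas its neighbour Lilr4b is not established as carrying an ITIM. Lilrb4a shares 47.2% and Lilr4b 24.5% of its stretches with other genes. Pecam1 is also an endothelial gene. Pirb, an inhibitory receptor for major histocompatibility complex class I, had 52.1, 42.2 and 53.1 against 29.7, 30.4 and 57.9 CPM and did not pass (-0.32, standard error 0.26, adjusted p = 0.475).

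The kinase cascade below the ITAM chains had the most calls of the 7 lists, 7 of 20, and all 20 had a lower fitted level (median -0.58). Syk, the kinase that docks on the ITAM, fell from 47.5, 45.5 and 50.1 CPM to 27.8, 28.5 and 26.7 CPM (log2 fold change -0.79, standard error 0.11, adjusted p = 0.0328). Its livers within a group were close to each other, and the groups were well apart. With smaller margins Pik3r5 and Pik3cg, subunits of a PI3 kinase of blood cells (-0.83, adjusted p = 0.0358 and -0.73, adjusted p = 0.048), the kinase Btk (-0.85, 0.0409), Prkcd, a protein kinase C (-0.85, 0.0455), and Plcg2 (-0.66, 0.0491) fell too.

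Among phosphatases and adapters listed with ITIM receptors, 2 of 10 tested genes fell (median -0.37). These were Inpp5d, the lipid phosphatase that opposes PI3 kinase (log2 fold change -0.71, adjusted p = 0.0466), and Fyb, an adapter of blood cells (-0.72, adjusted p = 0.0455). Ptpn6, the phosphatase that the ITIM recruits, had 76.9, 70.9 and 82.9 against 60.5, 59.9 and 56.6 CPM, lower without overlap but not past the test (-0.38, standard error 0.12, adjusted p = 0.113).

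Of 16 tested ligands of the members, 2 fell: Col4a1, a collagen of basement membranes (-1.0, standard error 0.20, adjusted p = 0.0466), and Sftpd, a collectin that binds inhibitory receptors (-0.89, standard error 0.18, adjusted p = 0.0466). Cd47, the ligand of Sirpa, had 126, 107 and 118 CPM in sgCtrl and 99.5, 99.6 and 101 CPM in sgPrdx2 livers (-0.23, standard error 0.12, adjusted p = 0.297). C1qc was at -0.48 (adjusted p = 0.112). Of the 16, 10 had a lower and 6 a higher fitted level. The collagens Col1a2 (-0.67, adjusted p = 0.0612) and Col3a1 (-0.63, adjusted p = 0.109) were lower without overlap, and Col1a1 (-0.50, adjusted p = 0.156) was lower with overlap. None of these 3, also chosen after their values were seen, passed. The hepatocyte products Crp (0.61, adjusted p = 0.0678) and Mbl2 (0.79, adjusted p = 0.0797) and the antibody gene Ighg2c (1.40, adjusted p = 0.0643), chosen after their values were seen, exceeded their sgCtrl range in all sgPrdx2 livers and did not pass. Apcs, another plasma ligand from hepatocytes, had a lower fitted level, with 249, 174 and 501 CPM in sgCtrl and 158, 170 and 266 CPM in sgPrdx2 livers (-0.64, adjusted p = 0.338).

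Markers of the cells that carry the members mostly had lower fitted levels in sgPrdx2 livers as well. Of 6 pan-leukocyte genes, all had a lower fitted level and Laptm5, Cd53 and Itgb2 fell (median -0.82, against -0.81 for the members), and their summed level was 622.6 to 779 CPM in sgCtrl and 382 to 476 CPM in sgPrdx2 livers. Of 12 macrophage markers, all had a lower fitted level, 3 were lower without overlap (17.5% of all genes) and Mpeg1 fell (median -0.34). Their sums were 3882 to 4539 CPM in sgCtrl and 2801 to 3780 CPM in sgPrdx2 livers. Lyz2, the most abundant of them, overlapped, with 2060, 2000 and 1980 CPM in sgCtrl and 1340, 1390 and 2080 CPM in sgPrdx2 livers. The markers of resident Kupffer cells varied widely within the sgCtrl group, with Clec4f at 24.6, 64.3 and 144 CPM and Cd5l at 100.0, 159 and 319 CPM. None of 6 tested neutrophil, 5 dendritic cell and 4 B cell markers was called by edgeR or DESeq2 (3 neutrophil markers lower and 1 B cell marker higher at an unadjusted p under 0.05), 1 of 6 T and NK cell markers fell (Cd8a), and Ly6g and 5 of the 6 mast cell markers were at or near 0. The part of these cells in the members' values was not tested beyond the ratios that follow.

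**Figure D4:**
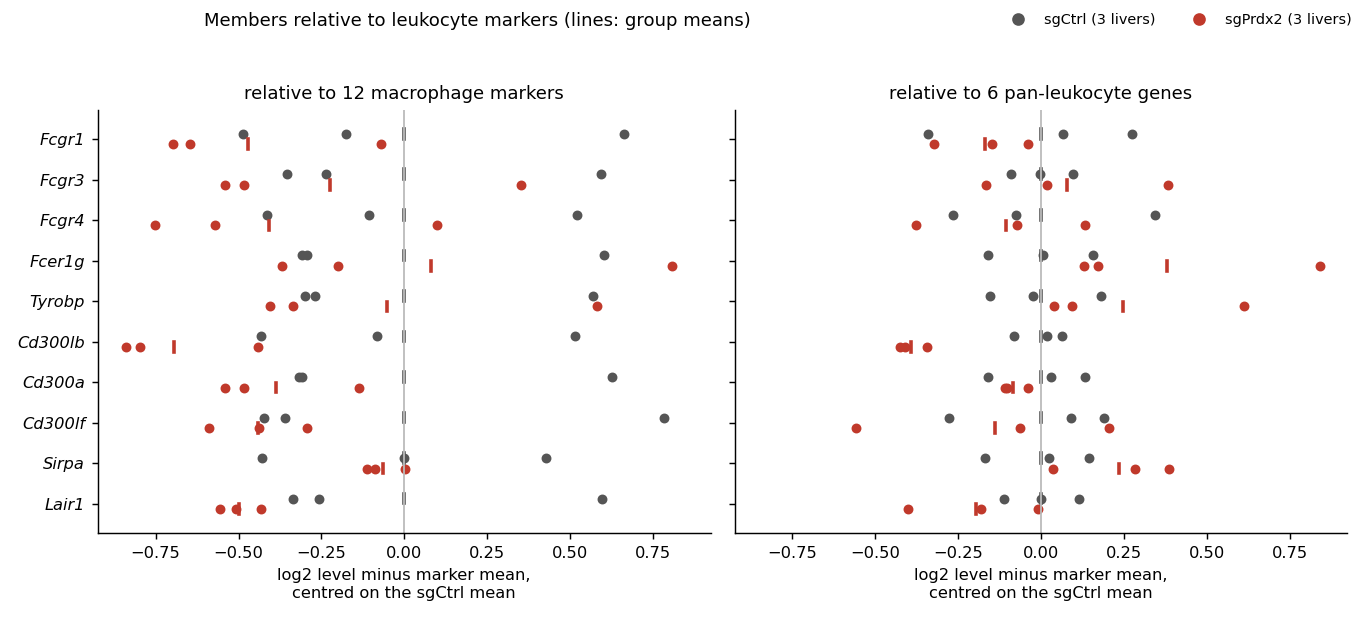
Log2 CPM of each member minus the mean log2 CPM of 12 macrophage markers (left) or 6 pan-leukocyte genes (right), centred on the sgCtrl mean (horizontal axes), with the 3 livers of each group as points and group means as lines. Against the pan-leukocyte genes the groups overlap for every member except Cd300lb, which was chosen for its fall in these livers.

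Relative to the mean of the 12 macrophage markers, the members differed less between groups than in CPM, and the median of the 10 differences was -0.40 on the log2 scale. The marker mean itself was 6.16, 6.58 and 7.05 in sgCtrl and 6.26, 6.26 and 6.06 in sgPrdx2 livers (difference -0.40, exact permutation p = 0.3). Lair1 was lower without overlap (-0.50, exact p = 0.1, the smallest possible), as was Cd300lb (-0.69, no test). For Fcgr1 (-0.47, exact p = 0.3), Fcgr4 (-0.41, exact p = 0.4), Fcgr3 (-0.22, exact p = 0.5), Cd300lf (-0.44, exact p = 0.4), Cd300a (-0.39, exact p = 0.4), Sirpa (-0.07, exact p = 0.8), Tyrobp (-0.05, exact p = 0.6) and Fcer1g (0.08, exact p = 0.7) the groups overlapped. The median of the 10 differences was -0.06 without sgCtrl liver 5.1, which had the lowest Clec4f and Cd5l of its group.

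Relative to the 6 pan-leukocyte genes, the differences were smaller still for most members. Cd300lb was at -1.78, -1.64 and -1.68 in sgCtrl and at -2.04, -2.12 and -2.11 in sgPrdx2 livers, a difference of -0.39. It was the only member of the 10 without overlap, but it was chosen for its fall in these same livers, so its standing apart from the others is a description. Lair1 (-0.20, exact p = 0.2), Cd300a (-0.08, exact p = 0.4), Fcgr1 (-0.17, exact p = 0.5), Fcgr4 (-0.11, exact p = 0.7) and Cd300lf (-0.14, exact p = 0.7) were lower on average with overlap, and Fcgr3 (0.08, exact p = 0.8), Sirpa (0.24, exact p = 0.2), Tyrobp (0.25, exact p = 0.4) and Fcer1g (0.38, exact p = 0.2) higher on average with overlap. For 9 of the 10 the difference from the pan-leukocyte genes was thus within the spread between livers, which does not show that they moved alike.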

How the data were processed

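Whole livers of 6 mice (3 sgCtrl, 3 sgPrdx2, grouped by the sample labels) were profiled by RNA-Seq. The authors deposited raw counts of reads per gene, without normalization, as well as their DESeq2 results (mean signal, fold changes and p-values), which were not used. Per the submitters' processing notes, HISAT2, HTSeq, DESeq2 and GRCm38 were used. Their versions, the annotation and the strand setting are not given in the sources used here, so antisense and shared reads could not be separated.

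Counts were analyzed with edgeR 4.0.16 in R 4.3.3: filterByExpr (minimum count 10), TMM, quasi-likelihood test over all 6 livers, two-sided, Benjamini-Hochberg adjustment over 17032 genes, called at adjusted p under 0.05. Adjusted p-values in the report are from this test. Standard errors were taken as log2 fold change over the square root of the F statistic. Under TMM the bulk of genes is taken as unchanged. Single values were compared by exact permutation of livers. The marker means used log2 CPM with a prior count of 2. Depth was 37462102 to 56865293 counts, at which 3 counts stand for 0.0555 to 0.0921 CPM (this covers counting error). All pairs of livers differed by more than sampling noise (lowest chi-square per degree of freedom 34.7).

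Exon lengths and positions come from GENCODE M21, with 48007 of 52459 symbols matched to 1 gene, and 97.1% of tested genes had a length. Promoters are RefSeq's. Alternatives were RLE, upper-quartile and housekeeping scaling, DESeq2 1.42.0, other filters and thresholds, other marker summaries and leaving out each liver. A correction of length and GC content was added later. The members and all lists were chosen with earlier results of these data known, so no count over them is independent evidence. Named were the members, Prdx2, Fcgr2b, Fcgrt, Cd47, Pirb, Trem2, Syk and Ptpn6, the called genes of each list (at most 5 by p) or, with none called, the 2 of smallest p, and the 5 genes most like the members, of which 1 is not reported here. Crp, Mbl2, Ighg2c, Apcs, Col1a1, Col1a2, Col3a1, Cd300c, Cd300c2, Cd300lg and the named cell markers were chosen after their values were seen.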

Additional observations from a re-analysis of the deposited data

How the results depend on the processing

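All 10 members, of which Cd300lb was chosen for its fall, had a log2 fold change below 0 in each of the 13 alternatives that refitted the data. Cd300lb ranged from -1.47 to -1.06, Lair1 from -1.27 to -0.75, Cd300a from -1.18 to -0.71 and Fcer1g from -0.69 to -0.10 over them. The counts of calls depended on the setting and are given as all genes lower, all genes higher, members besides Cd300lb lower, pathway genes lower and pathway genes higher, beside 262, 305, 2, 16 and 0 as reported. DESeq2 gave 886, 1162, 6, 34 and 4. Housekeeping scaling, which places the median of all genes at -0.38, gave 919, 70, 7, 44 and 0 and a median of the members of -1.19. Without a filter on low counts they were 484, 644, 5, 23 and 3. A threshold of 0.01 gave 0 for all 5 (4241 genes had an unadjusted p under 0.05 in edgeR, 7 of the 9 members among them, and 4367 in DESeq2), and a threshold of 0.1 gave 803, 964, 6, 29 and 4. The correction of length and GC content, chosen after seeing the data, gave 479, 540, 6, 29 and 2. RLE, upper-quartile normalization and at least 10 counts in every liver stayed within 1.5 times of the reported counts. With RLE, Fcgr4 overlapped between groups, which left 6 members lower without overlap.

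Leaving out 1 liver at a time gave 0 to 295 genes lower, 0 to 324 higher, 0 to 3 members besides Cd300lb called, 0 to 20 pathway genes lower and 0 to 1 higher. The counts of 0 came from the fits without sgCtrl liver 5.1 or 7.2 or sgPrdx2 liver 1.1 or 1.3, in each of which 6 of the 9 members had an unadjusted p under 0.05, and without sgCtrl liver 7.1 7 pathway genes were called lower. The fits without sgCtrl liver 7.1 and without sgPrdx2 liver 3.2, with as many livers, called 394 and 619 genes. The cause was not tested. The median of the members relative to macrophage markers was -0.40 and ranged from -0.58 to -0.06, the last without sgCtrl liver 5.1, and was -0.25 with the median of the markers. No paired analysis was possible because the mouse numbers of the groups are not shared. With 3 livers a group, exact tests cannot go below 0.1, and the counting error is small beside the spread between livers.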
